A study of Mus musculus with 32 samples.

Results

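Within-animal differences between the CAST and the B6 allele of each autosomal gene were described for the preoptic area of young adult F1 hybrid mice. CAST is the wild-derived strain CastEiJ and B6 is the reference strain C57BL/6J. The 4 preoptic samples were a male and a female pool from the F1i cross (mother CastEiJ, father C57BL/6J) and a male and a female pool from the F1r cross (mother C57BL/6J, father CastEiJ). All mice were 5 weeks old, each pool held RNA from 8 to 10 animals. Each pool was sequenced as 2 technical replicates that the authors had summed, so the 8 preoptic samples of the 32 in the series gave 4 columns of reads per allele. A gene entered if it lay on chromosomes 1 to 19 and had a mean of at least 20 reads per pool at single-nucleotide polymorphisms (SNPs), positions where the strains differ by a base. This left 11503 of 13904 autosomal genes. The lowest mean among the tested genes was 20 reads and the highest among the 2401 genes left out was 19.75. The SNP reads of a gene are those of its transcript with most reads. The CAST share of a gene is the percentage of its SNP reads that carried the CAST base, averaged over the 4 pools, and 50% is an even share.

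In an F1 hybrid both parental alleles sit in the same nucleus and meet the same transcription factors, hormones and cell types. An unequal share of the mRNA is therefore assigned to sequence linked to the allele itself (cis), such as its promoter, enhancers, splice sites or the stability of its transcript. Parent-of-origin imprinting also makes shares unequal, but it favours CAST in one cross and B6 in the reciprocal cross, so the mean over both crosses cancels it, and a bias was called only where both crosses lay on the same side of 50%. The preoptic area, at the front of the hypothalamus, takes part in the control of body temperature, sleep, thirst, mating and parental care.

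The pools held between 3430086 and 7358088 autosomal reads at SNPs, of which 48.6% to 49.5% carried the CAST base. The dissection was checked on known markers: the hypothalamic genes Oxt, Trh, Nts, Gal, Avp, Hmx3 and Six3 had reads in all 4 preoptic pools and were not listed in the prefrontal cortex table. Cortical Neurod6 was listed in cortex and not in the preoptic table, while Tbr1 reached 5.95 to 9.51 CPM (reads scaled to the autosomal total of the pool) in the preoptic pools and 46.4 to 60.1 CPM in cortex. Nkx2-1 and Lamp5 were listed in neither. The other cortical marker Rasgrf2 was not lower in the preoptic pools, at 78.8 to 87.9 CPM against 40.1 to 85.5 CPM in cortex. The preoptic marker Moxd1 overlapped between the regions, at 16.1 to 32.1 CPM against 17.4 to 23.4 CPM in cortex. X-linked reads were 97.0% CAST in the F1i male and 1.07% CAST in the F1r male, whose X chromosome comes from the mother, and lay between 68.4% and 74.2% in the female pools.

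The F1r female pool stood apart on chromosome 7. Its median CAST share over genes with at least 50 reads per pool was 51.9% there, against 50.8% in the F1r male and 48.9% to 49.4% in the F1i pools. Of 228 windows of 10 Mb with at least 10 such genes, 6 had a pool more than 5 points from the median of the pools, and 4 of these were on chromosome 7. In the window from 70 to 80 Mb the F1r female median was 64.9% and the other medians were 48.0% to 50.6%. On chromosome 18 both F1r pools had medians above 50%, at 50.9% and 50.5%. Counts of calls on chromosome 7 are given with and without the F1r female pool at the end, which leaves the F1r male pool in.

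**Figure D1:**
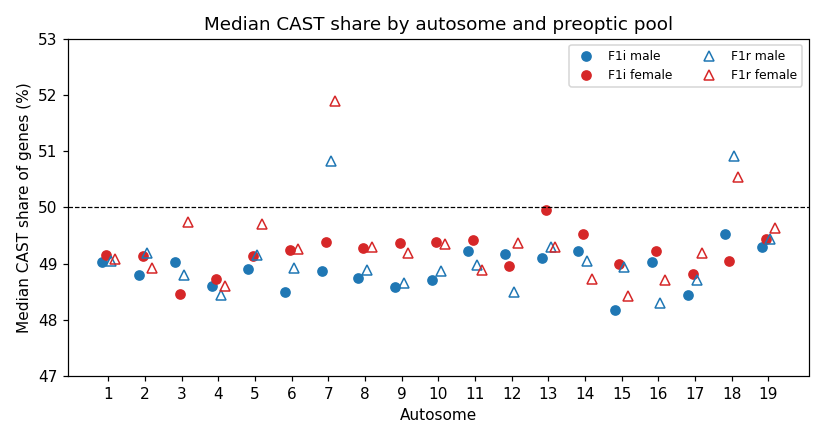
Median CAST share of genes with at least 50 reads per pool (y axis, %) on each autosome (x axis) in the 4 preoptic pools. Circles are F1i, triangles F1r, blue male and red female. The F1r pools at chromosomes 7 and 18 lie above 50%, and every other median lies below it.

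Strain bias was widespread and mostly small. The CAST allele was called higher for 1292 genes (11.2% of those tested) and the B6 allele for 1959 (17.0%), at an adjusted p under 0.05 in edgeR's quasi-likelihood test with a term for each pool. The CAST share had a median of 49.2% over all tested genes, with quartiles at 45.9% and 52.6%. The called genes had a median of 58.5% on the CAST side and 42.7% on the B6 side, and 2981 of the 3251 called genes lay on the same side of 50% in all 4 pools. A further 88 genes passed the p threshold with the 2 crosses on opposite sides, and 15 of these are on a list of known imprinted genes.

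At a share of at least 60% or at most 40% the B6 calls were more numerous, 580 against 542 CAST calls, and at more extreme shares the CAST calls were. A share of at least 65% was found for 276 genes called toward CAST, and a share of at most 35% for 239 called toward B6. Shares of at least 80% were found for 57 genes against 17 at 20% or less, and shares of at least 90% for 29 genes against 2 at 10% or less. Of the 89 CAST calls at 75% or more, 32 held SNPs that were almost wholly CAST, described below. The split between directions depended on the scaling. Giving each allele column its own TMM library size moved log2 ratios by a median of 0.04 and gave 1560 CAST and 1622 B6 calls, so that 49.0% of the calls favoured CAST in place of 39.7%. DESeq2's Wald test on the same columns made 273 and 395 calls. The counts at strong shares are those of the calls made with equal library sizes.

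**Figure D2:**
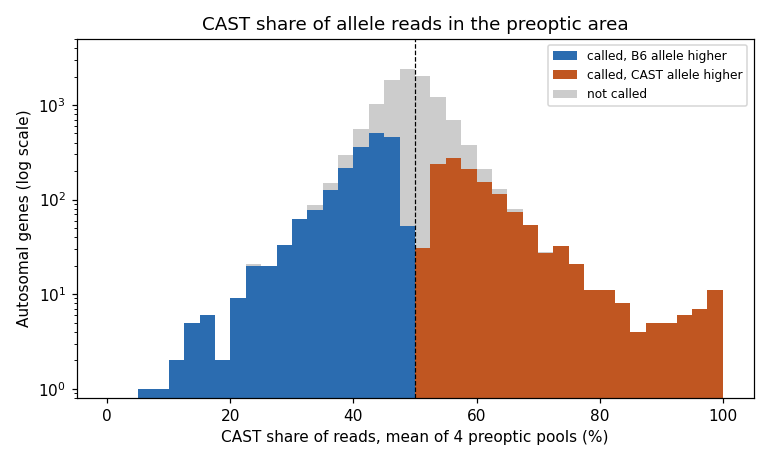
Number of autosomal genes (y axis, log scale) by mean CAST share over the 4 preoptic pools (x axis, %). Grey marks genes without a call, blue and orange the 1959 B6 and 1292 CAST calls. The tail above 80% holds more genes than the tail below 20%.

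The reads that separate the alleles come from single bases. For 10 of the strongly biased genes and for Gabra2, whose strain variant has been described elsewhere, the SNP with most reads is shown with 12 bases on each side. The sequence is that of the B6 reference (mm9, NCBIM37), read 5′ to 3′ on the transcript strand, with the SNP base in capitals.

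Retsat: aacctgggaggaGcgattcccagac
Pla2g4e: ggtccctacccaAgtgttgctgatg
Rsph1: gcaggagggtgcTgccgagctcatc
Hddc3: tgagccgttctcTgtgccatcctgc
Scg5: tcttgttgggccAcagagcatcgaa
Clic6: acactggcttgcAgcagatgagtgg
Aldh1b1: gcaagctgggacGgtgtgggtgaac
Pdxdc1: cctcccagggccActgatctcacgg
Dusp28: actgcggccgccTacctcccacctc
Itih3: ggaaatggatgcAgccctgaaggag
Gabra2: gacgccagaaccGaacaagaagcca

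The substitutions are given as the B6 base, the position counted from 1 at the 5′ end of the GENCODE transcript, and the CAST base. Retsat G1506C lies in a coding exon (chr6:72556466-72556490, plus strand) and was 91.9% CAST over 407 reads of all pools. Pla2g4e A4254G lies in the 3′ UTR (chr2:119992359-119992383, minus strand) and was 92.5% CAST over 93 reads. Rsph1 T548C is coding (chr17:31402801-31402825, minus strand), with 82.0% CAST over 323 reads. The Retsat and Rsph1 shares lie close to those of the whole genes given below. The Pla2g4e SNP had the highest share of its gene, whose mean was 86.1%.

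Hddc3 T551C is in the 3′ UTR (chr7:87490662-87490686, plus strand), with 84.3% CAST over 362 reads. Scg5 A343G is coding (chr2:113667497-113667521, minus strand), with 70.6% CAST over 2724 reads, the most of the genes shown. Gabra2 G1479A is coding (chr5:71353197-71353221, minus strand), with 68.3% CAST over 331 reads. All of these SNPs favour CAST.

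On the B6 side, Clic6 A2123G is in the 3′ UTR (chr16:92539841-92539865, plus strand), with 27.5% CAST over 160 reads. Aldh1b1 G1564A is coding (chr4:45816730-45816754, plus strand), with 22.4% CAST over 67 reads. Pdxdc1 A2458G is coding (chr16:13836538-13836562, minus strand), with 37.7% CAST over 244 reads. Dusp28 T1001C is in the 3′ UTR (chr1:94804695-94804719, plus strand) and was 30.8% CAST over 201 reads.

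Itih3 A1834G is coding (chr14:31728601-31728625, minus strand), with 29.3% CAST over 1147 reads. The SNPs of 21 of 40 genes looked up could be placed on a GENCODE transcript in this way, and 200 of their 234 SNPs were also listed in the deposited table of reads aligned to the genome.

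Among genes with at least 3 SNPs, at least 100 reads per pool and the same side in all pools, Retsat had a strong CAST bias at every SNP. Retsat encodes retinol saturase, an oxidoreductase that acts on vitamin A. Its CAST share was 87.1% in the F1i male, 89.7% in the F1i female, 88.6% in the F1r male and 94.6% in the F1r female pool. The mean was 90.01% ± 3.22 (SD, n = 4), a log2 CAST to B6 ratio of 3.29 ± 0.17 (SE) with an adjusted p of 1.01e-10 in edgeR's test. All 4 pools were far above 50% and the groups by cross overlapped.

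Pla2g4e, a cytosolic phospholipase A2 that makes N-acyl phosphatidylethanolamines, had CAST shares of 91.4% and 84.2% in the F1i male and female pools and 83.4% and 85.6% in the F1r pools. Its log2 ratio was 2.57 ± 0.13, and all 18 SNPs with at least 20 reads were above 50%, from 75% to 92.5%. Rsph1, a radial spoke component of motile cilia, had 86.5%, 82.9%, 82.5% and 82.2% in the same order, with a log2 ratio of 2.30 ± 0.11. The F1i male pool of Rsph1 was the highest and the other pools lay within a point of each other.

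Hddc3, which encodes a metal-dependent hydrolase, had shares of 73.3%, 72.9%, 78.9% and 91.5% in the same order. It lies on chromosome 7, and the F1r female pool was again the highest. Its bias was 2.12 ± 0.17 on the log2 scale. Wdfy1, an endosomal adaptor with FYVE and WD40 domains, had 82.9%, 82.4%, 71.5% and 68.9%, so both F1i pools were above both F1r pools. All 8 of its SNPs favoured CAST.

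Among eligible genes at 65% CAST or more, those with most reads included Scg5, Pcp4 and Sfi1. Scg5 encodes 7B2, a chaperone of prohormone convertase 2, and had a mean of 2813 reads per pool. Its CAST share was 69.4%, 68.4%, 66.4% and 66.0% in the 4 pools in the same order, a log2 ratio of 1.06 ± 0.037 with an adjusted p of 3.93e-13 in edgeR's test. All 8 SNPs of Scg5 were above 50%, from 61.7% to 78.7%.

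Pcp4, a calmodulin-binding peptide of neurons, differed between the crosses in the preoptic pools. It had 53.2% and 57.5% in the F1i pools against 76.9% and 75.4% in the F1r pools. In the prefrontal cortex Pcp4 had 76.9% and 72.2% in the F1i pools and 68.2% and 73.0% in the F1r pools. In embryonic whole brain it had 78.4% in F1i and 60.2% in F1r. Sfi1, a centrosomal protein, had 74.3%, 70.9%, 66.1% and 72.3%, and 18 of its 19 SNPs favoured CAST.

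In several genes at the top of the ranking a few SNPs carried the bias. Sfrs2 (Srsf2), a splicing factor, had a CAST share of 96.2% ± 1.29, but 2 of its 3 SNPs were at 99% CAST or more and held 92.5% of its reads, and the remaining SNP was at 51.4%. Slc7a11, the cystine and glutamate exchanger, had 88.7% ± 2.88. One-sided SNPs held 80.9% of its reads, the other SNPs together were at 50.7%, and 6 of 12 SNPs lay above 50%.

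Ftl2, a ferritin light chain copy, and Srp9, a subunit of the signal recognition particle, also held one-sided SNPs. In Ftl2 2 of 3 SNPs were one-sided and the other was at 43.7%. In Srp9 3 of 11 were one-sided and the rest were at 54.6% together. In Csl, a citrate synthase-like gene, 2 of 4 SNPs were one-sided with 29.0% of the reads, and the SNP with most reads was at 55.3%. Reads aligned to the genome, in exons of the genes, gave a CAST share of 46.2% for Srsf2, 40.6% for Slc7a11 and 36.5% for Srp9, opposite in side to the transcript table.

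Such one-sided SNPs were found on the CAST side alone. Of 113235 SNP entries with at least 20 reads, 212 (0.187%) were at 99% CAST or more and 0 were at 1% or less. They occurred in 75 of the 1292 CAST calls, but in 32 of the 89 CAST calls with a share of at least 75%. Their source was not tested.

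Cd59a, Uros and Clic6 were among the genes with the lowest CAST shares, and all of their SNPs were on the B6 side. Cd59a encodes a cell-surface inhibitor of the complement membrane attack complex. Its CAST share was 11.2%, 17.3%, 15.8% and 19.6% in the 4 pools, a log2 ratio of -2.32 ± 0.13 with an adjusted p of 4.36e-10 in edgeR's test, and all 16 SNPs were below 50%. Uros, the uroporphyrinogen III synthase of haem synthesis, had 18.9%, 18.02%, 26.5% and 22.8%, with 11 of 11 SNPs on the B6 side. Both genes had 4 pools far below 50%.

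Clic6, a chloride intracellular channel family member, had 20.9%, 30.2%, 25.4% and 25.2%, with all 22 SNPs on the B6 side. Aldh1b1, a mitochondrial aldehyde dehydrogenase, had 26.7%, 29.3%, 23% and 28.9%, with 15 of 15 SNPs on that side. Dusp28, a dual-specificity phosphatase, had 32.0%, 25.4%, 33.9% and 24.9%. For these 3 genes the reads aligned to the genome gave 24.1%, 28.1% and 27.3%.

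Itih3, an inter-alpha-trypsin inhibitor heavy chain, had the most reads among the eligible genes with a CAST share of 35% or less, at 2490 per pool. It had 29.1%, 31.9%, 29.5% and 29.9%, a log2 ratio of -1.21 ± 0.042 with an adjusted p of 3.80e-13 in edgeR's test, and 12 of 12 SNPs on the B6 side. Gcsh, the H protein of the glycine cleavage system, had 33.8% ± 3.53 with 16 of 16 SNPs. Pmvk, phosphomevalonate kinase of sterol synthesis, had 29.4% ± 2.82 with 9 of 9.

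Several other genes in this group have close copies in the genome, where reads may be shared. They are the class I entries H2-D1 (23.5% ± 4.02) and H2-B2 (14.9% ± 5.60) and the ribosomal gene Rps15a (22.2% ± 5.94). The Srp54a and Srp54c copies (31.8% ± 1.39 and 31.7% ± 4.09) and Rshl2b (24.1% ± 8.73) also belong here. Most SNPs of H2-B2 had the same reads and shares as SNPs of H2-D1, such as 171 reads at 22.2% CAST. The SNPs with most reads also matched between Srp54a and Srp54c, such as 579 reads at 31.6%. The members of these pairs are therefore not separate observations. Shares of all the genes in this group are uncertain because of the copies. In H2-D1 1 SNP was at 95.5% CAST while 7 of 9 were on the B6 side.

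**Figure D3:**
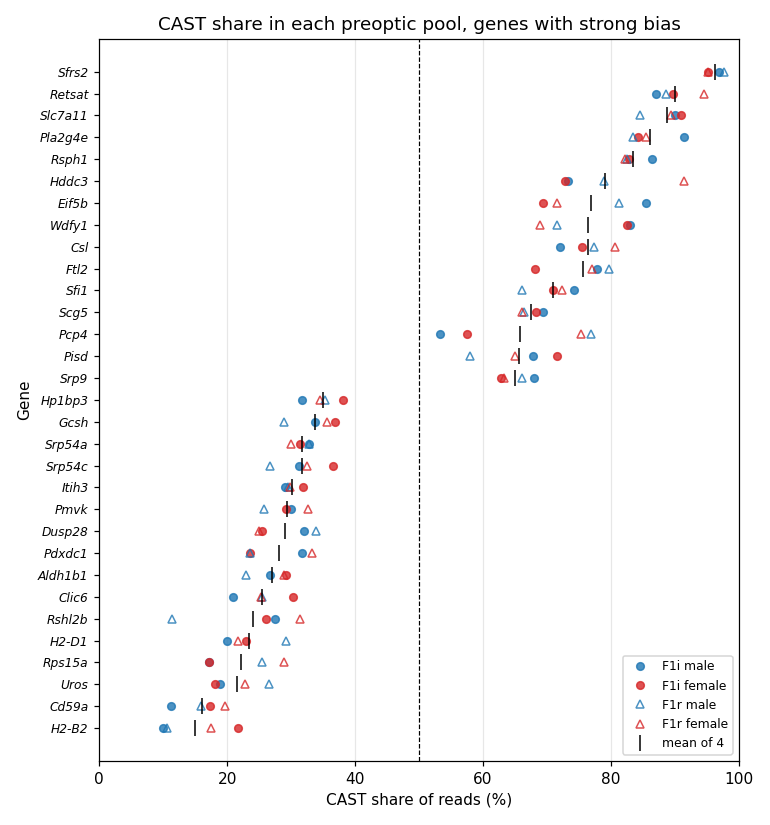
CAST share (x axis, %) of the genes with the strongest bias or most reads (y axis, ordered by mean), in each of the 4 preoptic pools, with a bar at their mean. Every point of a gene lies on 1 side of 50%. The F1i and F1r symbols of Pcp4 separate, and Sfrs2, Slc7a11, Ftl2, Csl and Srp9 are the CAST-biased genes shown that hold one-sided SNPs.

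SNPs within a called gene mostly lay on the called side, which the sum of their reads had itself set. The counts that follow describe the SNPs and are not a separate check of the calls. Among CAST calls with at least 3 SNPs of at least 20 reads, all SNPs lay on the CAST side in 308 of 1107 genes (27.8%) and at least 75% of them did in 748 (67.6%). The same counts for B6 calls were 438 of 1808 (24.2%) and 1217 (67.3%). In 20 genes of each direction fewer than 50% of the SNPs were on the called side. When reads were aligned to the genome and summed over exons, 800 of 899 CAST calls (89.0%) and 1518 of 1550 B6 calls (97.9%) kept their side. These are reads of the same 4 pools, so this compares alignments and is not independent of the calls.

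Crowded SNPs leaned to B6. SNP entries with at least 40 reads and no other listed SNP within 35 bases had a median CAST share of 49.4%, those with 1 neighbour 49.1%, with 2 neighbours 48.4%, with 3 neighbours 46.3% and with 4 or more 41.7%. The reads came from 36 sequencing cycles, so SNPs this close can share a read. Whether this lean enters the count of B6 calls was not tested beyond the fits that follow. Fitting isolated SNPs alone gave 1164 CAST and 1505 B6 calls, and 127 of the 3019 calls tested there changed side. Using the SNP with most reads alone, 345 of 2608 did.

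Genes with described variants between laboratory strains were taken first. Of 9 measured, 3 were called toward CAST, 2 toward B6 and 4 were not called, against 11.2% and 17.0% of all genes. Gabra2, the alpha 2 subunit of the GABA-A receptor, is known for an intronic deletion in C57BL/6J that lowers its expression. Its CAST share was 71.6%, 72.2%, 70.5% and 59.9%, a log2 ratio of 1.11 ± 0.12 with an adjusted p of 1.56e-06 in edgeR's test. The F1r female pool was below the others, and all 5 SNPs favoured CAST.

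Nnt, the mitochondrial nicotinamide nucleotide transhydrogenase, lacks several exons in C57BL/6J. It had 63.4%, 57.1%, 74.2% and 63.6%, with a log2 ratio of 0.79 ± 0.14, and its 14 SNPs ranged from 46.2% to 82.1%. In the prefrontal cortex Nnt was at 50.1% ± 3.81 and was not called. Whether the missing exons bear on the preoptic share was not tested. Glo1, glyoxalase 1, had 64.7% ± 9.22 from 2 SNPs and 34.75 reads per pool. Its adjusted p was 0.025 in edgeR's test.

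Entpd4, a Golgi nucleotidase called toward B6, had 38.5%, 36.9%, 44.0% and 45.9%, so the F1i pools were below the F1r pools. Kcnj9 (51.1% ± 1.04), Alad (45.1% ± 1.29), Ide (48.7% ± 1.19) and Ahr (46.3% ± 6.85) were not called.

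Gene lists of cell types and pathways were then compared by counts. Each preoptic count is to be read against all tested genes, of which 11.2% were called toward CAST and 17.0% toward B6. Whether a list differs from all genes was not tested. In the list of preoptic and hypothalamic neuron genes, 6 of 33 tested members were called toward CAST (18.2%) and 6 toward B6 (18.2%), with a median share of 50.2% against 49.2% for all genes. Scg2, secretogranin II, had CAST shares of 56.96%, 57.6%, 56.7% and 53.7%, while Vgf, a precursor of secreted neuropeptides, had 45.03%, 43.9%, 43.6% and 45.6%. Penk1, the proenkephalin gene, was at 46.6% ± 2.47, with 2 of its 4 SNPs on the B6 side. Tac2, which encodes neurokinin B, was at 56.2% ± 1.12, and Ecel1, an endopeptidase-like enzyme, at 47.4% ± 0.221.

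The receptors for the 2 neurohypophyseal peptides were called in opposite directions. Both were chosen for description with their values known. Oxtr, the oxytocin receptor, had 33.9%, 37.9%, 38.4% and 38.4%, a log2 ratio of -0.75 ± 0.13 with an adjusted p of 0.000248 in edgeR's test. Avpr1a, the vasopressin 1a receptor, had 50.8%, 64.8%, 65.5% and 65.5%, a log2 ratio of 0.77 ± 0.17, with the F1i male pool near 50%. The peptides themselves were near even, at 51.4% ± 0.909 for Oxt and 48.3% ± 4.33 for Avp. DESeq2's Wald test called 0 members of this list.

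Among sex steroid and nuclear hormone genes 2 of 19 were called toward CAST (10.5%) and 6 toward B6 (31.6%). Hsd17b12, a very long chain 3-oxoacyl reductase that also reduces estrone, was at 39.9% ± 2.21. The corepressor Ncor1 was at 43.2% ± 1.71 and the retinoid X receptor Rxra at 43.9% ± 1.09. Star, which moves cholesterol into mitochondria for steroid synthesis, had 97.3% ± 3.29 from 23.5 reads per pool in the preoptic area, and 51.3% ± 13.1 in cortex. The estrogen receptor Esr1 (53.2% ± 4.205) and the progesterone receptor Pgr (52.7% ± 0.405) were not called.

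Of 20 oligodendrocyte and myelin genes 10 were called toward B6 (50%, against 17.0% of all genes) and 1 toward CAST, with a median share of 46.5%. This count fell with other choices: the SNP of most reads alone gave 4 CAST and 5 B6 calls with a median of 51.1%, isolated SNPs 3 and 7, and DESeq2's Wald test 1 and 3. Mobp, a myelin structural protein, had 36.5%, 36.6%, 35.8% and 37.4% from a mean of 10468 reads per pool, a log2 ratio of -0.79 ± 0.024 with an adjusted p of 1.90e-13 in edgeR's test. Mbp, myelin basic protein, had 44.4%, 45.5%, 45.4% and 44.2%. Mag, the myelin-associated glycoprotein on chromosome 7, was the CAST call. It had 51.5%, 52.0%, 58.7% and 64.7%, so the F1i pools were near even and the F1r female pool was the highest. In cortex 6 of 20 list members were called toward B6 and 2 toward CAST, against 24.0% and 11.6% of all genes tested there.

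Microglial genes gave 6 B6 calls (40%) and 0 CAST calls among 15. The complement subunit C1qb was at 42.4% ± 1.88, the homeostatic microglial protein Tmem119 at 40.7% ± 3.95, the lysosomal Laptm5 at 43.3% ± 2.98 and the lipid-sensing receptor Trem2 at 40.01% ± 3.46. In cortex 8 of 15 were called toward B6 and 0 toward CAST, against 24.0% and 11.6% of all genes tested there. DESeq2's Wald test called 1 of the preoptic members. Endothelial and mural genes gave 6 B6 calls (28.6%) and 1 CAST call (4.76%) among 21. Ly6a, a GPI-anchored surface antigen, had 31.9%, 31.3%, 31.5% and 31.3%, and its chromosome 15 neighbour Ly6e had 55.6%, 56.3%, 55.8% and 55.1%. SNP entries of Ly6e reached 100% CAST, and isolated SNPs alone put it at 45.1%.

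Astrocyte genes were called often and in both directions, 7 of 20 toward CAST (35%) and 6 toward B6 (30%), with a median share of 50.2%. On the B6 side stood Aldoc, aldolase C, at 44.99% ± 0.731 and Glul, glutamine synthetase, at 48.1% ± 0.253. On the CAST side stood the lipoprotein Apoe at 53.4% ± 0.973 and clusterin (Clu) at 54.7% ± 1.42. The water channel Aqp4 at 57.8% ± 3.61 and the glutamate transporter Slc1a3 at 53.1% ± 0.538 were called the same way. Only 8 of the 16 SNPs of Slc1a3 were on the CAST side, and reads aligned to the genome put it at 50.9%. Apoe lies on chromosome 7, where its F1r female pool was at 53.5% and the other pools were at 52.0% to 54.1%.

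Glutamate, GABA and glycine receptor genes gave 10 B6 (27.0%) and 2 CAST calls (5.41%) among 37. Grik5, a kainate receptor subunit, had 39.4%, 38.9%, 37.1% and 41.6%, a log2 ratio of -0.62 ± 0.060. Gabbr1, a GABA-B receptor subunit, was at 43.9% ± 1.30, and Gabrb2, a GABA-A receptor subunit, at 44.3% ± 0.636. Voltage-gated and potassium channel genes gave 17 B6 (21.0%) and 6 CAST calls (7.41%) among 81, near the 17.0% and 11.2% of all genes. Kcnj16, an inward rectifier potassium channel, was at 68.0%, 66.5%, 61.1% and 62.2%, with all 31 SNPs above 50%. Monoamine, acetylcholine, histamine and opioid receptor genes gave 2 CAST (8.7%) and 1 B6 call (4.35%) among 23. They included the serotonin receptor Htr1a at 55.4% ± 2.63.

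Glutathione and xenobiotic enzymes had 20 of 69 members called toward CAST (29.0%) and 17 toward B6 (24.6%). Their median distance from 50% was 6.57 points, against 3.40 for all genes. Cyp46a1, the cholesterol 24-hydroxylase of neurons, had the most reads among the B6 calls and was at 45.4% ± 1.22. Cyp2d22, a cytochrome P450 called toward CAST, had 65.7%, 63.2%, 60.8% and 65.03%. The glutathione transferases went both ways, with Gsta4 at 29.8% ± 3.05 and Gstm7 at 81.9% ± 3.61. Aldh1a1, which makes retinoic acid, was at 34.5% ± 0.348. Members of the Cyp2d, Cyp4f and Gst families have near-identical copies, so their shares are uncertain.

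Cytosolic ribosomal protein genes gave 20 B6 calls (40%) and 10 CAST calls (20%) among 50. Rps28 was at 34.0% ± 2.07, Rps15 at 44.5% ± 1.11 and Rps2 at 59.0% ± 1.12. Most of these genes have processed pseudogenes, so single values are uncertain. Nuclear genes of mitochondrial respiration gave 13 B6 (22.8%) and 12 CAST calls (21.1%) among 57. Within cytochrome c oxidase, Cox6a1 was at 66.2% ± 2.73 and Cox7a2 at 67.2% ± 2.56, while Cox8a was at 45.9% ± 0.156. Complex I showed Ndufs5 at 40.1% ± 1.67 and Ndufs6 at 55.95% ± 1.72. Reads aligned to the genome put Ndufs5 at 70.9%, on the opposite side, so its direction is uncertain.

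Class I antigen presentation genes gave 4 CAST (26.7%) and 5 B6 calls (33.3%) among 15. H2-K1 was at 29.1% ± 3.81, beside H2-D1 above, and H2-Q7 was at 68.3% ± 6.86. The mouse class I genes differ at many bases between strains, and reads of one can match another. In the interferon list 6 of 49 genes were measured well enough, with Irgm at 28.6% ± 4.10, Irf3 at 36.9% ± 6.64 and Gbp3 at 71.8% ± 7.37.

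Clustered protocadherins, cell-surface proteins that give neurons their identity, had the most CAST calls of any list, 32 of 47 (68.1%), with 3 B6 calls and a median share of 58.9%. The alpha, beta and gamma clusters gave 12 of 14, 5 of 12 and 15 of 21 CAST calls. Alpha and gamma members share constant exons, and 42 of the 77 SNP entries of alpha members with at least 20 reads recurred in another member, so these genes are not separate observations. At SNPs of their own, 1 of 3 alpha, 5 of 8 beta and 11 of 16 gamma members with at least 80 such reads lay above 50%. Pcdhgb7 had 61.9% and 62.8% in the F1i pools and 73.7% and 73.6% in the F1r pools. Without the protocadherins 48 of 308 genes on chromosome 18 (15.6%) were called toward CAST and 48 toward B6.

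Zinc finger genes named Zfp had 17 of 183 members called toward CAST (9.29%) and 21 toward B6 (11.5%). Imprinted genes, whose bias cancels over the crosses, gave 1 CAST (2.27%) and 2 B6 calls (4.55%) among 44. Circadian genes gave 3 CAST calls (15.8%) and 1 B6 call (5.26%) among 19. They were Timeless (73.5% ± 4.82 from 27.5 reads per pool), Dbp, Tef (52.9% ± 1.36) and Cry2 (45.8% ± 4.03). Dbp, on chromosome 7, was at 71.2% ± 15.4 from 27 reads per pool, with 88.4% in the F1r female pool. With TMM or DESeq2 scaling per allele column the B6 calls fell from 6 to 3 in the hypothalamic list and from 10 to 7 among the glutamate, GABA and glycine receptors, while the respiration list turned from 12 CAST and 13 B6 calls to 14 and 10.

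Leaving out the F1r female pool lowered the calls over all genes to 755 CAST and 1245 B6, and these list counts moved by more than 1.5 times. Respiration fell to 4 B6 calls, the channels to 8, endothelial and mural genes to 3, and the Zfp genes to 6 CAST and 12 B6 calls. The circadian list gave 0 CAST calls and 1 B6 call, class I genes 2 CAST calls, the interferon list 1 B6 call, the glutamate, GABA and glycine receptors 1 CAST call, the protocadherins 1 B6 call, the monoamine list 0 B6 calls, the hormone genes 1 CAST call and the imprinted list 0 calls. With isolated SNPs alone the hormone genes gave 0 CAST and 2 B6 calls, the circadian list 1 and 2, respiration 11 and 6, and xenobiotic enzymes 17 and 9.

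DESeq2's Wald test made fewer calls in each of these lists. It left 0 CAST and 3 B6 calls among endothelial and mural genes, 0 and 1 among astrocyte genes, and 1 and 1 among the hormone genes. It left 10 and 8 among xenobiotic enzymes, 3 and 6 among ribosomal proteins, 2 and 2 in respiration and 1 and 2 among class I genes. The protocadherins kept 16 CAST calls and 0 B6 calls, the channels 1 and 2, the glutamate, GABA and glycine receptors 1 and 3, and the circadian and monoamine lists 0.

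**Figure D4:**
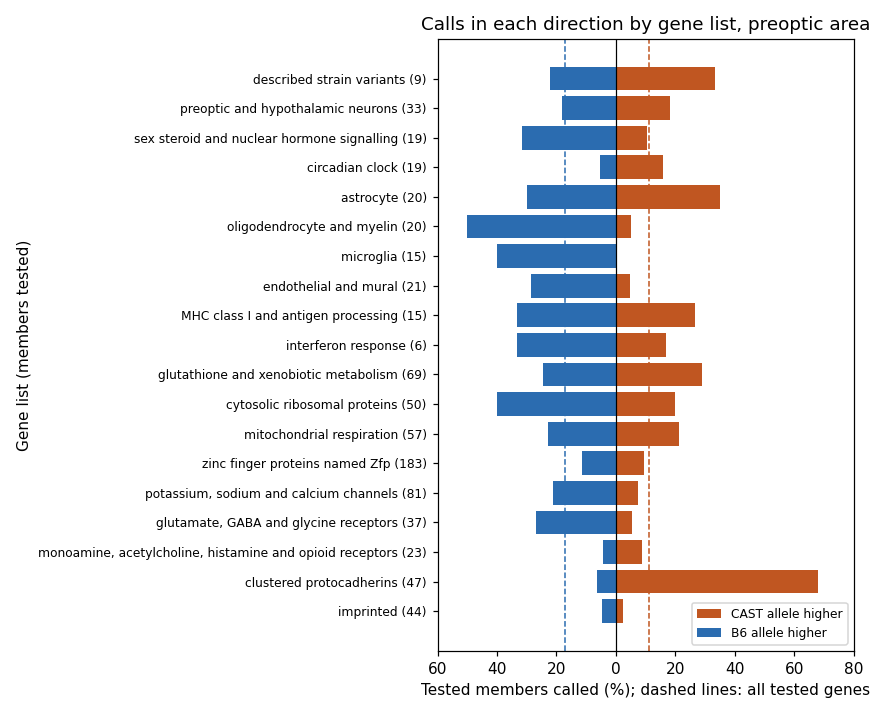
Percentage of tested members called toward CAST (orange, right) and toward B6 (blue, left) in each gene list (y axis, members tested in brackets). Dashed lines mark the 11.2% and 17.0% of all tested genes. Protocadherins stand out to the right, oligodendrocyte, microglial and ribosomal genes to the left.

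Most preoptic biases had the same direction in the prefrontal cortex of F1 mice of the same crosses, sexes and age. The labels do not say whether both regions came from the same animals. In cortex 11.6% of 11029 tested genes were called toward CAST and 24.0% toward B6. Of the preoptic CAST calls that could be tested in cortex, 535 of 1162 were called toward CAST there too (46.0%) and 51 toward B6. Of the preoptic B6 calls, 1135 of 1857 were called the same way (61.1%) and 50 the opposite way. Over the 3019 preoptic calls tested in both regions, CAST shares correlated across genes with Pearson's r = 0.79, and over all 10544 genes tested in both r was 0.61. Genes are not independent replicates, and the points share SNPs and alignment.

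Retsat, Pla2g4e and Scg5 were at 91.8% ± 2.77, 82.1% ± 3.47 and 66.0% ± 2.48 in cortex, on the same side as in the preoptic area. Gabra2 was at 70.1% ± 5.12 and Uros at 21.6% ± 8.80. Clic6 was not listed in cortex.

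A direct test of the difference between the regions was fitted over 8 pools and the SNPs listed in both. The CAST share was higher in the preoptic area for 835 of 10823 genes (7.72%) and lower for 442 (4.08%). This split followed the scaling, since TMM per allele column gave 621 higher and 616 lower and moved the median log2 difference from 0.05 to -0.0025. The autosomal CAST share of the cortex pools was 51.5% and 49.8% in F1i and 45.9% and 44.6% in F1r. Whether these pool differences contribute to the calls was not tested. DESeq2's Wald test called 198 genes.

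Hopx, a homeodomain-only protein found in astrocytes, changed side between the regions. It had a CAST share of 63.9% ± 3.73 in the preoptic area and 30.9% ± 3.03 in cortex, a log2 difference of 1.94 ± 0.13 with an adjusted p of 3.43e-11 in edgeR's test. Stmn1, a microtubule destabiliser, had 44.8% ± 1.498 against 27.1% ± 1.48 at the shared SNPs. Its preoptic side was 51.8% at isolated SNPs. Lypd1, a GPI-anchored modulator of nicotinic receptors, had 52.2% ± 0.647 against 33.8% ± 3.12, and Rps15 had 44.5% ± 1.11 against 33.7% ± 1.11.

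Among genes with lower CAST shares in the preoptic area than in cortex, Sparcl1, Cacng5 and Cltc had the smallest adjusted p. Sparcl1, an astrocyte-secreted matrix protein, had 47.1% ± 0.281 against 53.5% ± 1.09. Cacng5, an AMPA receptor regulator, had 57.5% ± 2.20 against 79.5% ± 4.19. Cltc, the clathrin heavy chain, had 50.2% ± 0.914 against 63.7% ± 3.23. Itih3 also differed, at 30.1% ± 1.24 against 44.9% ± 3.41 with an adjusted p of 1.31e-06 in edgeR's test. Of the genes called in both regions in opposite directions, 100 could be tested for the difference and 98 passed, which their opposite calls nearly fix.

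**Figure D5:**
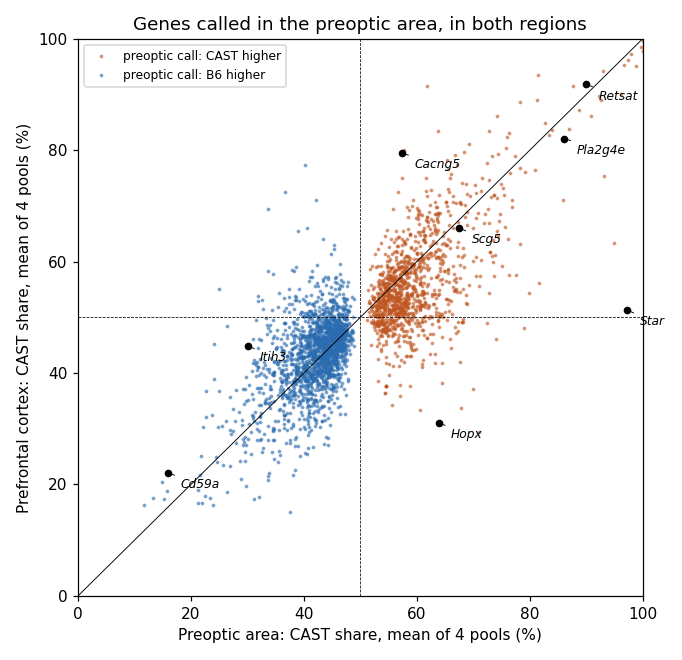
Mean CAST share in the preoptic area (x axis, %) and in the prefrontal cortex (y axis, %) of the 3019 genes called in the preoptic area and tested in cortex. Orange points are CAST calls and blue points B6 calls, with 8 genes named. Most points lie near the diagonal, and Hopx, Cacng5 and Star lie away from it.

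In whole brain at embryonic day 15, measured in 1 pool per cross and without a sex label, 677 of 1222 preoptic CAST calls (55.4%) were above 50% in both crosses and 233 were below in both. Among all embryonic genes 25.4% were above 50% in both crosses and 44.1% below. Of the preoptic B6 calls, 1345 of 1894 (71.0%) were below 50% in both embryonic crosses. With 1 pool per cross no test was made. Retsat was at 84.4% and 81.7% and Scg5 at 58.4% and 60.7% in the F1i and F1r embryos. Itih3, at 30.1% in the preoptic area, was at 61.9% and 78.2% in the embryos, and Clic6 was at 48.6% and 50.1%.

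A difference in strain bias between the sexes was tested within the preoptic area, where the 4 pools leave 1 residual degree of freedom. It was called for 33 of 11503 genes (0.287%), of which 26 are on chromosome 7, and in 24 of these the F1r female pool had the highest CAST share. Capns1, the small calpain subunit, had 50.5% and 49.95% in the F1i pools, 63.1% in the F1r male and 80.02% in the F1r female pool. Gpi1, glucose-6-phosphate isomerase, had 49.1%, 51.1%, 62.1% and 78.9%. In both genes the F1i male and female pools were close to 50%.

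In a fit without chromosome 7 genes 5 genes passed. They included Tuba1a, an alpha-tubulin with close copies, which had 39.4% and 43.3% in the male pools and 34.8% and 34.7% in the female pools. Without the term for the cross, or with DESeq2's Wald test, 0 genes passed, with 381 and 2 genes at an unadjusted p under 0.05. For the strain calls themselves, leaving out the F1r female pool kept 70 of 140 CAST and 67 of 111 B6 calls on chromosome 7, and 658 of 1152 and 1116 of 1848 on the other autosomes.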

How the data were processed

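RNA-seq reads had been aligned by the authors with Novoalign to mm9, per the submitters' processing notes, and the deposited tables hold whole-number counts of reads with the CAST and the B6 base at each SNP of each transcript, with technical replicates summed, per the labels' protocols. Aligner version and filters are not given in the sources used here. Counts were summed over the SNPs of a gene symbol, and 1056 repeated preoptic listings were dropped. edgeR 4.0.16 (R 4.3.3) fitted the counts with a term per pool, allele and allele by cross, the same library size for both alleles of a pool, and Benjamini-Hochberg adjustment over all tested genes. A call needed an adjusted p under 0.05 and the same side of 50% in both crosses. SE is the log2 ratio divided by the root of the F statistic. The regions and the sexes were compared by adding an allele by region or allele by sex term. Because the cross has its own term, the p of the strain and region tests measures the spread between male and female pools of a cross. It does not count differences between the crosses as spread. In every test this spread is combined with an estimate over all genes, and the sex test leaves 1 residual degree of freedom. Alternatives were TMM and DESeq2 (1.42.0) scaling, DESeq2's Wald test, read minimums of 0 and 100, other choices of SNPs and leaving out each pool. Most described genes were taken by rule: among calls with at least 3 SNPs, 100 reads per pool and 1 side in all pools, the 10 highest and 10 lowest shares, and the 6 with most reads in each direction at 65% or more or 35% or less. Added to these were all described strain variants, up to 3 called members per list and direction by reads, and up to 5 region and sex differences per direction. Outside the rule, and with their values seen, were Oxtr, Avpr1a, Oxt, Avp, Esr1, Pgr, Trem2, Aqp4, Gsta4, Gstm7, Aldh1a1, Rps28, Cox6a1, Cox7a2, Ndufs6 and H2-K1, and the tissue markers. All genes and lists were chosen with earlier results of these data known. Reads at SNPs are not independent where 1 read covers several SNPs. Parental strains were used for base changes only. Some results that the rule names are not reported here.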

Additional observations from a re-analysis of the deposited data

Results flagged for a closer look

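Among 142 named genes tested for a preoptic pool far from the other 3, 5 were picked out. This is fewer than the about 1 in 20 groups that chance picks. In Rsph1 the F1i male pool (86.5%) was high. In Hsd11b1 the F1i female pool was at 68.2% and every other pool at 66.7%, from 21.25 reads per pool. That gap is smaller than the change 1 read makes at this depth. In Gabra2 the F1r female pool (59.9%) was low. In the chromosome 7 genes Lmtk3 (77.6%) and Lrrc4b (87.5%) the F1r female pool was high while the other pools of Lrrc4b were between 50.2% and 52.6%.

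The strain bias differed between the preoptic area and cortex, by the test of the difference, for the genes with the smallest p in each direction. Log2 differences, preoptic area minus cortex, were 1.13 for Stmn1, 1.94 for Hopx, 1.09 for Lypd1, 0.66 for Rps15 and 1.18 for Spon1. They were -0.37 for Sparcl1, -1.49 for Cacng5, -0.80 for Cltc, -0.55 for Wbp2 and -0.97 for G3bp2. Spon1 is on chromosome 7, where its F1r female pool was at 68.0% and its F1i male pool at 46.7%.

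The test of the difference between the sexes has 1 residual degree of freedom and passed 0 genes without the cross term or with DESeq2's Wald test, so a sex difference is not shown. The genes with the smallest p had log2 differences of female minus male of 0.59 for Capns1, 0.64 for Gpi1, 0.81 for Lmtk3, 1.16 for Lrrc4b and 0.66 for Nomo1, all on chromosome 7 and all highest in the F1r female pool, while the F1i male and female pools of each differed by less than 3 points. Differences of the opposite sign were -0.40 for Tuba1a, -0.57 for Ftl1, -1.30 for Zfp324 and -2.02 for a noncoding RNA on chromosome 6 that the table lists by number only. Ftl1 had 45.3% and 46.9% in the male and 32.4% and 40.7% in the female pools. Zfp324 had 74.7% and 63.6% in the male and 51.4% and 43.8% in the female pools.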

How the results depend on the processing

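The counts of CAST and B6 calls (1292 and 1959) moved by more than 1.5 times with DESeq2's Wald test (273 and 395), with the SNP of most reads alone (673 and 829), with X-linked genes included (624 and 950) and with a required share of 60% or more or 40% or less (542 and 580). Leaving out each pool in turn gave 635 to 1084 CAST and 1004 to 1526 B6 calls. The region difference, 1277 genes, gave 198 with DESeq2's Wald test and 817 with the SNP of most reads, and 698 to 1127 when each of the 8 pools was left out. The sex difference, 33 genes, gave 0 with DESeq2's Wald test, 13 with the SNP of most reads, 0 without the cross term and 5 without chromosome 7. Leaving out a pool leaves this test no residual degree of freedom and was not run. Leaving out chromosome 7 and merging identical rows were chosen after seeing the data. The causes were not tested.

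Of 135 genes followed singly, 131 of them called, 78 lost the call in at least 1 alternative, 50 kept direction and call in all of theirs, and 17 changed direction. With the SNP of most reads alone the log2 ratio changed sign for Rps15a (0.057), Srp9 (-0.12), Glul (0.080), Ly6e (-0.71), Ugt8a (0.49), Uqcrc1 (-0.31), Zfp512 (-0.39), Zfp426 (0.068), Kcnc1 (-0.29), Scn3b (0.0093), Gabrg1 (-0.20), Gabrb2 (0.028), Chrm1 (0.36), Osbpl5 (0.30) and Stmn1 (0.094). With isolated SNPs it changed sign for Tef (-0.041), Ly6e (-0.30), Aldh5a1 (-0.019), Ugt8a (0.32) and Stmn1 (0.089). No paired analysis was possible because the deposited columns sum the technical replicates and carry no replicate numbers to match between groups. The 2 alleles themselves were compared within each pool. Depth limits genes near 20 reads per pool, where 1 read moves a pool's share by several points.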
